A study of Mus musculus with 12 samples.

Results

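The CCR4-NOT complex is the main cytoplasmic deadenylase of animal cells, the machine that shortens the polyA tails of mRNAs and so starts their decay. The genes described here are the 10 rows of the count table named Cnot1, Cnot2, Cnot3, Cnot4, Cnot6, Cnot6l, Cnot7, Cnot8, Cnot10 and Cnot11, chosen by name as subunits of the complex or proteins bound to it. They are 10 of the 24421 genes in the table, and all 10 passed the filter on low counts that left 14497 genes for testing.

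In the complex, the large protein CNOT1 is the scaffold on which the other subunits assemble. Deadenylation is done by a pair of nucleases held at once: either CNOT7 or CNOT8, of the DEDD family, together with either CNOT6 or CNOT6L, of the EEP family. RNA-binding proteins bring the complex to chosen transcripts, among them YTHDF2, which reads the m6A mark, the TNRC6 proteins of the microRNA machinery, the ZFP36 family, which binds AU-rich elements, and the Pumilio and NANOS proteins.

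All 12 libraries came from mouse E14 embryonic stem cells that expressed dCas_Alkbh5, a fusion of a Cas protein with the m6A demethylase ALKBH5, and that are labelled WT apart from this fusion. The cells received a guide plasmid, spent 3 days under blasticidin selection at 8 µg/mL, and were paused by the mTOR kinase inhibitor INK128 at 200 nM over the next 5 days. The groups, each of 4 libraries, were Mycn-gRNA2, Mycn-gRNA3 and the NT control guide (NT-gRNA). The targeted transcript, Mycn, encodes a MYC-family transcription factor. All groups therefore shared the fusion protein, the selection and the drug, and the control was a single guide. Each library was made from polyA RNA of 200000 cells with ERCC synthetic RNAs added to the extracted RNA. Whether replicates were separate cultures is not stated in the labels, so the spread behind each p-value may be technical.

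The libraries held 17248564 to 33819855 endogenous reads, of which 28521 to 53049 fell on the 10 subunit genes. Levels are given as CPM, counts scaled by library size and TMM factors. The targeted gene Mycn was at 236 ± 26.7 CPM with Mycn-gRNA2, 276 ± 16.7 CPM with Mycn-gRNA3 and 141 ± 4.17 CPM in NT (SD, n = 4 each), and its level was higher in all 8 guide libraries than in NT. In CPM, no difference in Alkbh5 reads between both guides and NT was detected (log2 fold change 0.00, SE 0.0567, edgeR adjusted p = 0.967). Per ERCC read, the other scale used below, Alkbh5 was higher by 0.39 on the log2 scale (edgeR adjusted p = 0.0107). The median of all genes on that scale was also 0.39. The Mycn-gRNA2 library of replicate 1 stood apart, at -51.3 on the second principal component, against -3.62 to 10.7 for the other 11 libraries. The summed level of 4 Y-linked genes was 32.4 to 83.7 CPM with Mycn-gRNA2, 46.1 to 63.5 CPM with Mycn-gRNA3 and 0.0448 to 0.181 CPM in NT, so NT and guide libraries also differed in Y-linked RNA. In every comparison with NT, the guide and a different origin of the cells cannot be told apart. All 10 embryonic stem cell markers were detected, and their sum was 4148 to 4860 CPM with Mycn-gRNA2, 4921 to 5036 CPM with Mycn-gRNA3 and 5207 to 5728 CPM in NT; with both guides 3 of the 10 were called lower by edgeR, Nanog (-0.60 on the log2 scale), Klf4 (-0.36) and Esrrb (-0.35). The 8 fibroblast markers summed to 5.36 to 7.04 CPM with Mycn-gRNA2, 4.74 to 7.2 CPM with Mycn-gRNA3 and 1.86 to 2.51 CPM in NT, with Lum and Postn at 0 reads in NT and 5 of the 8 under 1 CPM on average in every group; the 4 that could be tested were all called higher with both guides by edgeR. The 8 primitive endoderm markers summed to 135 to 156 CPM with Mycn-gRNA2, 128 to 146 CPM with Mycn-gRNA3 and 114 to 156 CPM in NT, most of it Lama1, and 5 of the 8 were called higher and 1 lower. Of all tested genes, 14.9% were called higher and 13% lower in this comparison. Pdgfra is in both the fibroblast and the primitive endoderm list, so its higher call is counted in each. Some markers passed the filter on low counts only through the guide libraries. Among them were Col3a1 (1 read in NT, 115 with the guides), Foxa2 (6 and 468) and Sox17 (14 and 93). For such genes a call could only be higher, so these counts of markers called higher are partly set by the filter. The part of these marker differences in the subunit results was not tested.

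Read per kilobase of exon, which allows a rough comparison of levels between genes, the 10 genes covered a wide range. The length is that of all annotated exons of a gene, not of the transcript expressed, so the order also depends on the annotation. The highest was Cnot1, with 102 ± 4.72 CPM per kilobase with Mycn-gRNA2, 94.6 ± 1.72 with Mycn-gRNA3 and 117 ± 3.59 in NT (SD, n = 4 each), which in NT was at the 97.1 percentile of tested genes. Below it in NT came Cnot7 (45.6 CPM per kilobase), Cnot3 (42.2), Cnot8 (36.4), Cnot2 (34.8), Cnot10 (32.4), Cnot11 (26.9) and Cnot6 (26.5). Last were Cnot4 at 9.84 and Cnot6l at 3.66 CPM per kilobase, and Cnot6l was at the 37.9 percentile. Within NT the ranges of Cnot7 and Cnot3, of Cnot2 and Cnot10, and of Cnot11 and Cnot6 overlapped, so the order inside each of these neighbouring pairs is not resolved by the spread. The order differed between groups only among Cnot7, Cnot3 and Cnot8. Cnot8 ranked 4 of 10 with Mycn-gRNA2, 2 with Mycn-gRNA3 and 4 in NT, and Cnot7 ranked 3 with Mycn-gRNA2, 4 with Mycn-gRNA3 and 2 in NT. Within each guide group the ranges of neighbours among these 3 genes overlapped.

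**Figure D1:**
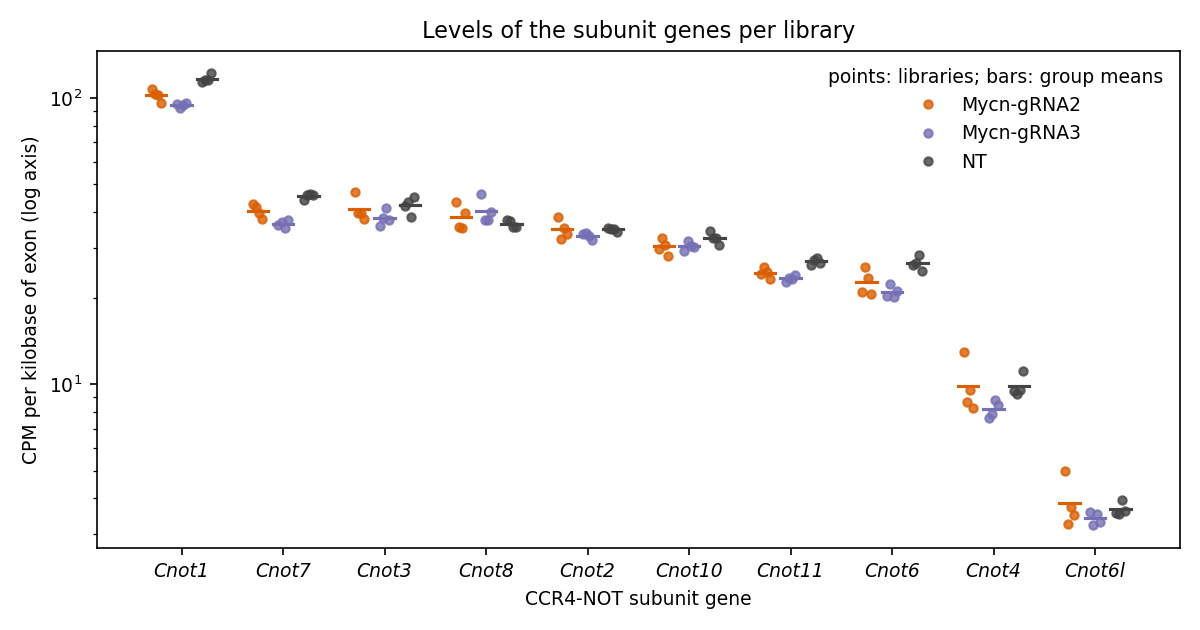
Level of each subunit gene in CPM per kilobase of exon (log axis), with a point per library and a bar at each group mean, for Mycn-gRNA2, Mycn-gRNA3 and NT from left to right. Cnot1 lies above all other subunits in every group, and Cnot4 and Cnot6l lie below them.

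Since the guides address Mycn, the promoters of the subunit genes were read for the E-box letters CACGTG bound by MYC-family proteins and the variant CACGCG, and for the ETS core CGGAAG, on both strands. RefSeq windows of 250 bases before to 50 bases after a start (build GRCm38.p6) were at hand for 8 of the 10 genes, with 14 windows. There was no window for Cnot1 or Cnot7, which were both lower with both guides. CACGTG was found in 1 of these 8 genes, Cnot4, and in 8.09% of all 27025 genes with a window. CACGCG was found in 4 of them, Cnot4, Cnot8, Cnot11 and Cnot6l, in 5 of the 14 windows, against 10.5% of all genes and 9.27% of all 32851 windows. Genes with several windows, such as Cnot8, have more chances of a match. Overlapping windows also count the same site again, for CACGCG in Cnot6l and for CGGAAG in Cnot8. CGGAAG was found in 6 of them, in 7 of the 14 windows, against 18.8% of all genes and 16.9% of all windows. The window of Cnot6, also lower with both guides, had 0 matches of each kind. The windows of Cnot11, which was lower with both guides, of Cnot8, whose value had the opposite sign, and of Cnot4, the gene with CACGTG, are shown 5′ to 3′ with the E-box letters of both kinds in capitals. In Cnot4 CACGTG begins at position -183 from the start and CACGCG at -235; in Cnot8 CACGCG begins at -86, and in Cnot11 at -115. Cnot8 has 4 windows, of which the one with CACGCG is shown. The windows are chr1:39535451-39535750 (plus strand) for Cnot11, chr11:58103720-58104019 (plus strand) for Cnot8 and chr6:35133688-35133987 (minus strand) for Cnot4. The 14 windows held 35% to 82.7% G and C, most of them above the median of 52.7% for all windows. Each motif holds a CG, and the shares of all genes and windows were not matched for this content. Whether the subunit genes have more matches than genes of like content was not tested. A match describes these letters and is not a bound site.
Cnot11: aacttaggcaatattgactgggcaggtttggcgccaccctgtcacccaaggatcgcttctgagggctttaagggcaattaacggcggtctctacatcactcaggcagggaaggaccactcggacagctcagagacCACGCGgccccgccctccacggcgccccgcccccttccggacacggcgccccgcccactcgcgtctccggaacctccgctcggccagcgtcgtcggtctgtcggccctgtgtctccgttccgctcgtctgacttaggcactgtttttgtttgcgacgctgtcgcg
Cnot8: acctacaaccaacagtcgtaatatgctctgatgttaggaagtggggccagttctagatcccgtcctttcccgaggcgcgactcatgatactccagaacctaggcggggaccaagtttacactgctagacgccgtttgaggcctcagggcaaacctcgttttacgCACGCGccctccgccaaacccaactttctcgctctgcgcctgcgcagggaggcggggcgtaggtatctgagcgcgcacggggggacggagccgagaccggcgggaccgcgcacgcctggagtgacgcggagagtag
Cnot4: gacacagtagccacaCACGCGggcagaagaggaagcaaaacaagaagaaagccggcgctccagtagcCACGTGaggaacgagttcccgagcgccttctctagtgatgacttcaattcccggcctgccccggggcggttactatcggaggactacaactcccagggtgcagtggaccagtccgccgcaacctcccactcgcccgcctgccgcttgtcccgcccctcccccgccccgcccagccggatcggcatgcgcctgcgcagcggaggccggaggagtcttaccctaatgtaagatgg

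Relative to the transcriptome, that is in CPM, 4 of the 10 subunit genes were lower with both Mycn guides than in NT and 0 were higher, at a Benjamini-Hochberg adjusted p under 0.05 over all 14497 genes. Among all tested genes, 13% were called lower and 14.9% higher in the same comparison. Among the 5594 genes at least as abundant as the lowest subunit gene, 14.7% were called lower. The 4 genes were the scaffold Cnot1, its binding partner Cnot11 and the nucleases Cnot7 and Cnot6, with falls between 10.9% and 17.5%. The median log2 fold change of the 10 genes was -0.11, against 0.00 for all genes, and 9 of the 10 values lay below 0. Since these are bulk libraries, fewer cells of a type and less of an RNA per cell cannot be told apart.

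The scaffold Cnot1 (chromosome 8, positions 95719451 to 95807462 of mm10, minus strand) had 903, 868, 856 and 807 CPM in Mycn-gRNA2 replicates 1 to 4 and 799, 772, 794 and 805 CPM in Mycn-gRNA3. The NT libraries had 956, 969, 966 and 1023 CPM. All 8 guide libraries lay below all 4 NT libraries, a separation downward that 6.87% of all tested genes showed. Cnot1 fell by 15.7% with both guides (log2 fold change -0.25, SE 0.0467, edgeR adjusted p = 0.00169). The value was -0.19 for Mycn-gRNA2 (adjusted p = 0.0289) and -0.30 for Mycn-gRNA3 (adjusted p = 0.00133), both against the same NT libraries. The call for Mycn-gRNA2 was lost without any 1 of the NT libraries, without Mycn-gRNA2 replicate 3 or 4, or without Mycn-gRNA3 replicate 2, at log2 fold changes between -0.20 and -0.16 in these fits. Of the 8375 exon bases of Cnot1, 130 are shared with the antisense gene 4930513N10Rik, and the sources used here do not give the strand setting of the counting, so reads of the pair cannot be separated.

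The genes whose levels followed Cnot1 most closely over the 12 libraries, by the root mean square of the difference of centred log2 CPM among 9370 genes, were Mbtd1 (0.0341), Fmr1 (0.0385) and Huwe1 (0.0401), against an SD of 0.138 for Cnot1 itself. Mbtd1 averaged 204 ± 9.90 CPM with Mycn-gRNA2, 189 ± 4.40 CPM with Mycn-gRNA3 and 226 ± 5.86 CPM in NT (SD, n = 4 each). These 3 genes were picked for this likeness, and their fold changes are no further evidence.

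The N-terminal module of the complex is formed by CNOT10 and CNOT11, which bind each other and the start of CNOT1. Cnot11 (chromosome 1, positions 39535802 to 39546877, plus strand) had 76.9, 81.5, 78.3 and 73.7 CPM with Mycn-gRNA2 and 72.1, 74.4, 74.1 and 76.4 CPM with Mycn-gRNA3. In NT it had 82.6, 86.4, 87.3 and 84.3 CPM. The groups did not overlap, although the gap between Mycn-gRNA2 replicate 2 and NT replicate 1 was small. Cnot11 fell by 10.9% with both guides (log2 fold change -0.17, SE 0.0468, edgeR adjusted p = 0.0173), and the adjusted p became 0.0529 without NT replicate 2 and 0.0613 without NT replicate 3. For Mycn-gRNA3 it fell by 0.20 on the log2 scale (adjusted p = 0.0159), and for Mycn-gRNA2 the value was -0.13 (adjusted p = 0.108).

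Cnot10 (chromosome 9, positions 114585874 to 114640200, minus strand) had 84.1 to 97.2 CPM with Mycn-gRNA2, 87.0 to 94.8 CPM with Mycn-gRNA3 and 91.5 to 103 CPM in NT. The groups overlapped, with 5 of 8 guide libraries below every NT library. Its log2 fold change was -0.10 (95% interval -0.21 to 0.02, edgeR adjusted p = 0.198).

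CNOT2 and CNOT3 form the NOT module at the other end of the scaffold, a docking surface for proteins that recruit the complex. Cnot2 (chromosome 10, positions 116485161 to 116581511, minus strand) averaged 121 ± 9.68 CPM with Mycn-gRNA2, 115 ± 2.74 CPM with Mycn-gRNA3 and 121 ± 1.81 CPM in NT (SD, n = 4 each). Its log2 fold change with both guides was -0.04 (95% interval -0.15 to 0.08, edgeR adjusted p = 0.629). All 4 Mycn-gRNA3 libraries lay below NT, but the Mycn-gRNA2 libraries lay on both sides, with replicate 1 the highest of all at 134 CPM. With the noncoding gene 5330438D12Rik on the opposite strand Cnot2 shares 133 of 3483 exon bases.

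Cnot3 (chromosome 7, positions 3645269 to 3661109, plus strand) averaged 119 ± 11.8 CPM with Mycn-gRNA2, 111 ± 6.93 CPM with Mycn-gRNA3 and 122 ± 8.08 CPM in NT (SD, n = 4 each). The groups overlapped, and the log2 fold change was -0.09 (95% interval -0.24 to 0.05, edgeR adjusted p = 0.34). Of its 2905 exon bases, 382 are shared with Leng1 on the opposite strand, and reads of the pair cannot be separated without the strand setting.

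Of the 4 nuclease genes, Cnot7 and Cnot6 were called lower, and their paralogs Cnot8 and Cnot6l were not called; the differences within the pairs are tested as ratios further on. Cnot7 (chromosome 8, positions 40492538 to 40515847, minus strand) had 118, 115, 110 and 104 CPM with Mycn-gRNA2 and 99.2, 102, 97.5 and 103 CPM with Mycn-gRNA3. The 4 NT libraries had 122, 127, 128 and 126 CPM, so all 8 guide libraries lay below them. In the GENCODE annotation 152 of the 2761 exon bases of Cnot7 are shared with Zdhhc2 on the opposite strand. Cnot7 fell by 15.9% with both guides (log2 fold change -0.25, SE 0.0474, edgeR adjusted p = 0.0017). With Mycn-gRNA3 the log2 fold change was -0.33 (SE 0.0552, adjusted p = 0.000946). The Mycn-gRNA2 value was -0.17 (adjusted p = 0.0435), a call that was lost in 15 of 20 alternatives, with values from -0.19 to -0.09 where it was lost, among them leaving out any 1 NT or Mycn-gRNA3 library or Mycn-gRNA2 replicate 3 or 4.

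Cnot8 (chromosome 11, positions 58104153 to 58118594, plus strand) had 88.2, 71.9, 71.5 and 80.8 CPM with Mycn-gRNA2 and 94.2, 76.2, 76.1 and 81.1 CPM with Mycn-gRNA3. In NT it had 76.1, 75.9, 72.0 and 72.2 CPM. The guide libraries overlapped NT, with 5 of 8 above every NT library and 2 below every one. Cnot8 was the only one of the 10 genes with a value above 0 in this comparison, at 0.11 on the log2 scale (95% interval -0.05 to 0.27, edgeR adjusted p = 0.281).

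Cnot6 (chromosome 11, positions 49671497 to 49712722, minus strand) had 121, 148, 135 and 119 CPM with Mycn-gRNA2 and 117, 129, 116 and 122 CPM with Mycn-gRNA3. The NT libraries had 150, 153, 163 and 143 CPM. The groups overlapped only through Mycn-gRNA2 replicate 2, which lay above NT replicate 4. Cnot6 fell by 17.5% with both guides (log2 fold change -0.28, SE 0.0644, edgeR adjusted p = 0.0059), by 0.33 on the log2 scale with Mycn-gRNA3 (adjusted p = 0.00566), and its Mycn-gRNA2 value was -0.22 (adjusted p = 0.0581). Without Mycn-gRNA2 replicate 2 the Mycn-gRNA2 value was -0.29 and passed the threshold.

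Cnot6l (chromosome 5, positions 96070333 to 96161990, minus strand), the nuclease gene with the lowest level, had 43.8, 28.8, 32.9 and 30.8 CPM with Mycn-gRNA2 and 31.6, 28.4, 31.1 and 29.2 CPM with Mycn-gRNA3. It had 31.2, 31.1, 34.7 and 31.9 CPM in NT. The groups overlapped, with 5 of 8 guide libraries at or below the lowest NT library and Mycn-gRNA2 replicate 1 far above all others. The log2 fold change was -0.01 (95% interval -0.21 to 0.19, edgeR adjusted p = 0.95).

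CNOT4 is a RING-type E3 ubiquitin ligase that binds the NOT module and, in mammals, is not a stable subunit. Cnot4 (chromosome 6, positions 35022065 to 35133737, minus strand) had 93.6, 62.5, 68.6 and 59.6 CPM with Mycn-gRNA2 and 54.9, 56.7, 63.4 and 60.7 CPM with Mycn-gRNA3. Its NT values were 68.1, 66.3, 68.5 and 80.1 CPM. All Mycn-gRNA3 libraries lay below NT, while Mycn-gRNA2 replicate 1 was above every other library. The log2 fold change with both guides was -0.13 (SE 0.105, edgeR adjusted p = 0.387). Without Mycn-gRNA2 replicate 1 it was -0.21 (adjusted p = 0.0137), so that library decides the call, and without NT replicate 4, the highest NT library, it was -0.06 (adjusted p = 0.735).

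**Figure D2:**
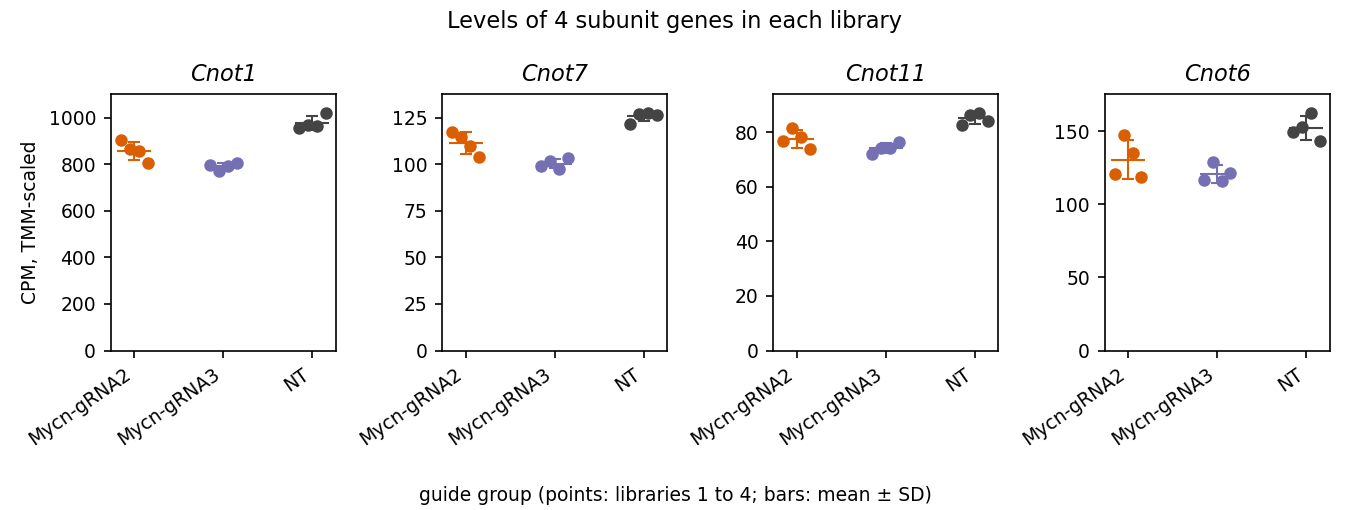
TMM-scaled CPM of Cnot1, Cnot7, Cnot11 and Cnot6 in each library of Mycn-gRNA2, Mycn-gRNA3 and NT, from left to right in each panel, with the mean and SD of each group; each axis starts at 0. The guide libraries lie below NT in the first 3 panels, and Mycn-gRNA2 replicate 2 reaches into the NT range for Cnot6.

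Counted per guide, 2 subunit genes were called lower and 0 higher with Mycn-gRNA2, against 7.06% and 10.1% of all genes. With Mycn-gRNA3, 4 were called lower and 0 higher, against 12.2% and 14.8% of all genes, and both sets of calls rest on the same NT libraries. All 4 Mycn-gRNA2 libraries lay below NT for 3 of the 10 genes (Cnot1, Cnot11 and Cnot7), as for 9.35% of all genes, and all 4 Mycn-gRNA3 libraries did so for 6 of the 10 (Cnot1, Cnot2, Cnot11, Cnot6, Cnot7 and Cnot4), as for 18.5% of all genes. Between the guides, 0 of the 10 genes and 0% of all genes were called by edgeR in Mycn-gRNA3 against Mycn-gRNA2. At an unadjusted p under 0.05, passed by 8.78% of all genes, 2 of the 10 passed, Cnot7 at -0.15 on the log2 scale (95% interval -0.27 to -0.03) and Cnot4 at -0.27 (95% interval -0.53 to -0.01). All 4 Mycn-gRNA3 libraries lay below all 4 Mycn-gRNA2 libraries for Cnot1 and Cnot7, a separation shown by 1.7% of all genes. The DESeq2 test called 0 of the 10 between the guides as well.

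Of the 4 genes called lower, 3 lie on chromosomes 1 or 8, and none of the other 6 does. Chromosome medians were taken over tested genes with an average log2 CPM above 3. Genes of chromosome 1 had a median log2 fold change of -0.13 with both guides and genes of chromosome 8 one of -0.12. The medians of the other chromosomes lay between -0.07 and 0.03. Over all tested genes, whatever their level, 26.4% of those on chromosome 1 and 24.6% of those on chromosome 8 were called lower. Set against the median of its own chromosome, Cnot1 was at -0.13, Cnot7 at -0.13 and Cnot11 at -0.04. Cnot6, on chromosome 11, where 9.25% of genes were called lower, was at -0.31 and Cnot8, on the same chromosome, at 0.08. The part of the chromosome-wide shift in the calls of Cnot1, Cnot7 and Cnot11 was not tested.

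The picture changed with the scale. Per ERCC read, with library sizes set to the ERCC totals, the median of all genes rose to 0.39 on the log2 scale with both guides, since guide libraries held more endogenous reads for each ERCC read: 65.6 to 95.6 with Mycn-gRNA2, 83.0 to 94.5 with Mycn-gRNA3 and 61.3 to 72.0 in NT. On this scale 5 of the 10 subunit genes were called higher and 0 lower, a share near that of all genes, of which 56.4% were called higher and 0.931% lower. Called higher were Cnot8, Cnot6l, Cnot2, Cnot3 and Cnot10. The median of the 10 genes was 0.28, and 9 of the 10 lay under the median of all genes. The spike-in went into RNA already extracted, so any difference in cell number or yield between samples is part of these values, and this was not tested.

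Per 1000 ERCC reads, Cnot8 had 7.31, 4.59, 5.88 and 7.75 reads with Mycn-gRNA2 and 8.97, 7.10, 7.23 and 6.65 reads with Mycn-gRNA3. The NT libraries had 4.54, 5.59, 4.73 and 4.53 reads. All guide libraries but Mycn-gRNA2 replicate 2 lay above NT. For both guides together Cnot8 rose by 0.51 in log2 units (SE 0.139, edgeR adjusted p = 0.00285), for Mycn-gRNA3 by 0.63 (adjusted p = 0.00128), and its Mycn-gRNA2 value was 0.40 (adjusted p = 0.0547). It was the only subunit gene above the all-gene median on this scale for both guides together and for Mycn-gRNA3, while with Mycn-gRNA2 4 of the 10 were (Cnot2, Cnot6l, Cnot8 and Cnot4).

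The other 4 calls per ERCC read were less firm. Cnot6l rose by 0.39 on the log2 scale (adjusted p = 0.0248) and Cnot2 by 0.36 (adjusted p = 0.0187) in edgeR, and both calls were lost without NT replicate 1 or NT replicate 4. Cnot3 rose by 0.31 (adjusted p = 0.0426) and Cnot10 by 0.30 (adjusted p = 0.0394), calls that were lost in 12 and 11 of 19 alternatives. Leaving out single libraries moved the number of genes called between 1, reached without NT replicate 1 or NT replicate 4, and 7, and without NT replicate 3, Mycn-gRNA2 replicate 3 or 4, or Mycn-gRNA3 replicate 1, 2 or 3 it was 3.

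The genes that were lower relative to the transcriptome showed no call per ERCC read. Cnot1 had 74.9, 55.4, 70.4 and 77.4 reads per 1000 ERCC reads with Mycn-gRNA2, 76.2, 71.9, 75.5 and 66.0 with Mycn-gRNA3 and 57.0, 71.4, 63.5 and 64.1 in NT. The groups overlapped, and the log2 fold change was 0.15 (95% interval -0.10 to 0.40, edgeR adjusted p = 0.285). Cnot7 was at 0.14 (95% interval -0.11 to 0.39), Cnot6 at 0.11 (-0.14 to 0.35) and Cnot11 at 0.23 (-0.03 to 0.48). Their falls are therefore falls relative to the other transcripts in the library, and a lower amount per ERCC read was not detected.

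By guide, 0 of the 10 genes were called per ERCC read with Mycn-gRNA2 by edgeR, where 26.3% of all genes were called higher, and 4 of the 10 reached an unadjusted p under 0.05, as did 42.3% of all genes. Without Mycn-gRNA2 replicate 2 the number called was 5, and without NT replicate 2 it was 1. With Mycn-gRNA3, 5 were called higher, against 60.7% of all genes. Cnot2, Cnot10, Cnot6l and Cnot8 lay above NT in all 4 Mycn-gRNA3 libraries, a separation that 61.2% of all genes showed. Without NT replicate 4 or Mycn-gRNA3 replicate 2 only Cnot8 was still called with Mycn-gRNA3, and the number was 2 or 3 without NT replicate 1 or 3, Mycn-gRNA2 replicate 3 or Mycn-gRNA3 replicate 1 or 3. Both comparisons use the same NT libraries. Between Mycn-gRNA3 and Mycn-gRNA2, 0 of the 10 genes and 0.0069% of all genes were called on this scale.

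**Figure D3:**
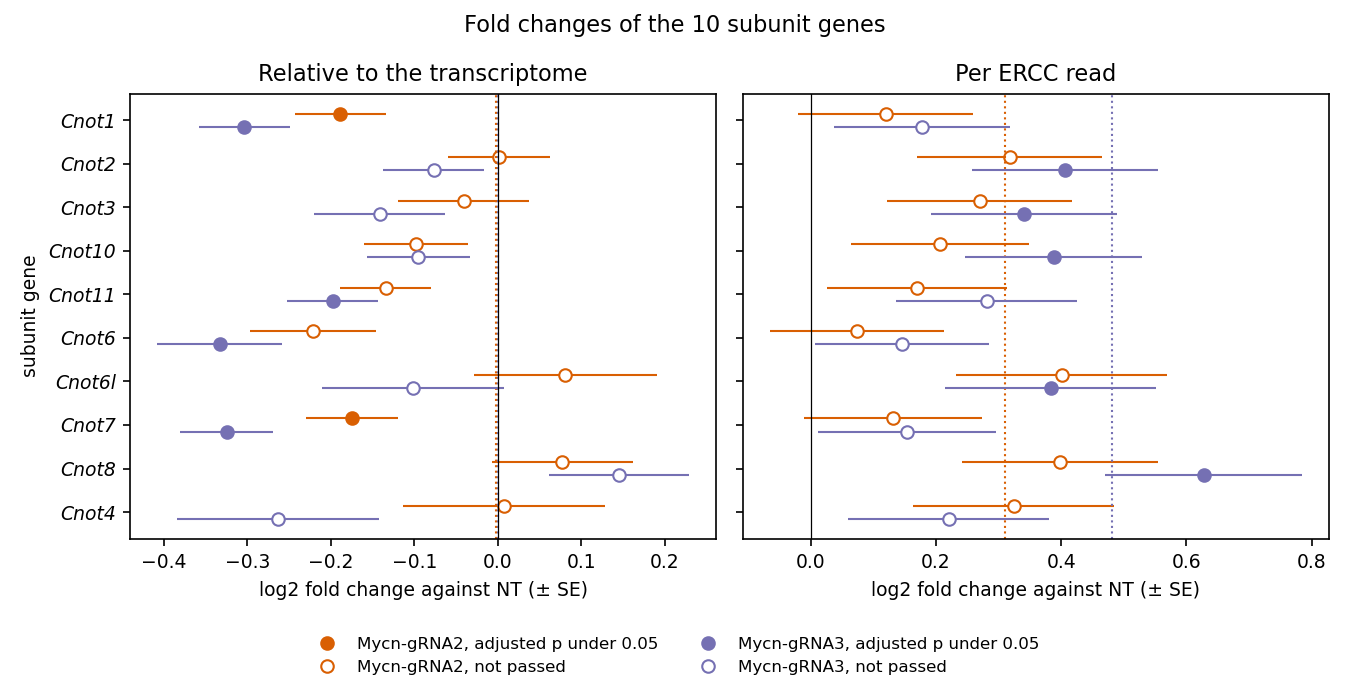
Log2 fold change of each subunit gene against NT with its SE, for Mycn-gRNA2 (orange) and Mycn-gRNA3 (purple), relative to the transcriptome on the left and per ERCC read on the right; filled points passed an adjusted p of 0.05 and dotted lines mark the median of all genes. Cnot1, Cnot7, Cnot11 and Cnot6 lie left of 0 in the left panel, and all 10 genes lie right of 0 in the right panel.

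Because CNOT7 and CNOT8 compete for one place on the scaffold, and CNOT6 and CNOT6L for another, the ratio of each pair within a library was also compared, a measure that no scaling touches. Cnot8 over Cnot7, in reads per kilobase, was 1.02, 0.851, 0.885 and 1.05 with Mycn-gRNA2 and 1.29, 1.02, 1.06 and 1.07 with Mycn-gRNA3. In NT it was 0.847, 0.811, 0.764 and 0.775. All 8 guide libraries lay above all 4 NT libraries, Mycn-gRNA2 replicate 2 by a small margin. The ratio was 1.28-fold higher with both guides, or 0.36 on the log2 scale (SE 0.0727, two-sided exact permutation p = 0.00404, adjusted p = 0.0323 over 8 ratio tests). This test treats the 8 guide libraries as separate units, and its p may be too small if same-numbered libraries of the guides are related. The paralogs also lie on different chromosomes. With both guides, the median log2 fold change was 0.03 on chromosome 11, which holds Cnot8, and -0.12 on chromosome 8, which holds Cnot7. The part of this chromosome-wide difference in the ratio was not tested. Groups of 4 against 4 libraries allow no exact p under 0.0286, which Mycn-gRNA2 (0.25 on the log2 scale) and Mycn-gRNA3 (0.47) both reached, with an adjusted p of 0.0763 each. The adjusted p for both guides lay between 0.0571 and 0.114 without Mycn-gRNA2 replicate 1 or 4 or Mycn-gRNA3 replicate 2, 3 or 4, while the log2 difference stayed between 0.35 and 0.36 in these fits.

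Cnot6l over Cnot6, in reads per kilobase, was 0.236, 0.127, 0.159 and 0.169 with Mycn-gRNA2 and 0.176, 0.143, 0.175 and 0.156 with Mycn-gRNA3. The NT values were 0.136, 0.133, 0.139 and 0.145. Of the 8 guide libraries, 6 lay above every NT library and Mycn-gRNA2 replicate 2 lay below every one. The difference of 0.26 on the log2 scale did not pass (two-sided exact permutation p = 0.0768, adjusted p = 0.114), and without Mycn-gRNA2 replicate 2 it was 0.31 with an adjusted p of 0.0457. Between Mycn-gRNA3 and Mycn-gRNA2 the exact permutation p, which leaves the replicate numbers aside, was 0.0857 for Cnot8 over Cnot7 and 0.857 for Cnot6l over Cnot6. Paired by replicate number, Cnot8 over Cnot7 was higher with Mycn-gRNA3 in 4 of 4 pairs (exact sign-flip p = 0.125, the smallest that 4 pairs can give).

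**Figure D4:**
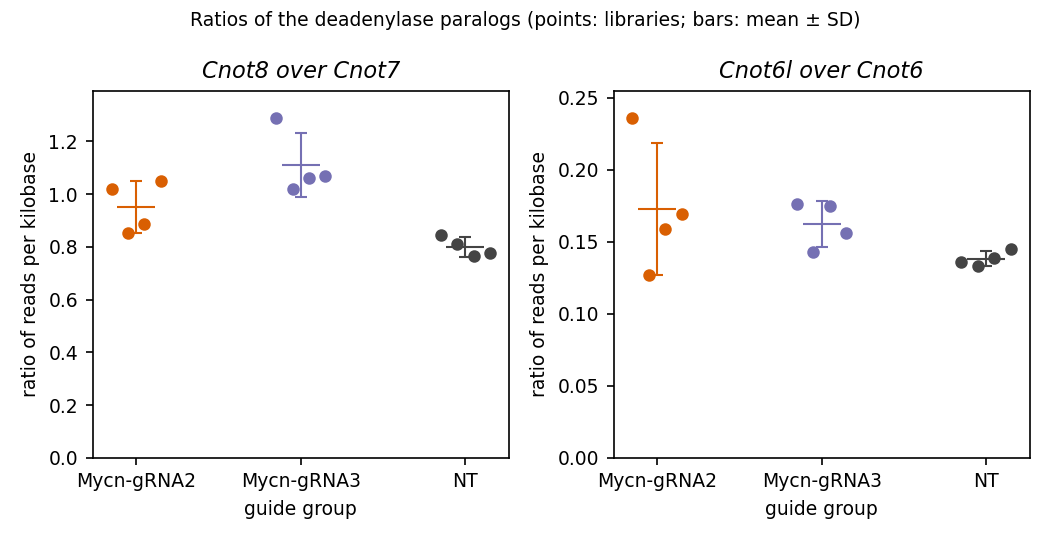
Ratio of reads per kilobase of Cnot8 over Cnot7 and of Cnot6l over Cnot6 in each library of Mycn-gRNA2, Mycn-gRNA3 and NT, from left to right, with the mean and SD of each group; axes start at 0. For Cnot8 over Cnot7 the 4 NT libraries lie between 0.764 and 0.847 and all guide libraries lie above them.

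The surrounding pathway was read from lists of its other genes, of which 57 of 60 were tested. Relative to the transcriptome, 3 were called higher and 9 lower with both guides, where 14.9% of all genes were called higher and 13% lower. Among the proteins that bring the complex to its targets, 7 of 17 were called lower and 1 higher, with a list median of -0.13 against 0.00 for all genes. Zfp36l2, which binds AU-rich elements, averaged 75.2 ± 7.73 CPM with Mycn-gRNA2, 76.4 ± 1.94 CPM with Mycn-gRNA3 and 104 ± 2.19 CPM in NT (SD, n = 4 each), a fall of 0.46 on the log2 scale (edgeR adjusted p = 9.39e-05). Its relative Zfp36l1 fell by 0.35 (adjusted p = 0.000303). Others that fell included Rc3h2, a Roquin protein that binds stem-loops, by 0.27, the microRNA effectors Tnrc6c by 0.26 and Tnrc6b by 0.23, and the RNA-binding protein gene Pum2 by 0.17 on the log2 scale. The m6A reader Ythdf2 went the other way, with 167 ± 14.96 CPM with Mycn-gRNA2, 160 ± 8.45 CPM with Mycn-gRNA3 and 126 ± 5.28 CPM in NT (SD, n = 4 each), a rise of 0.38 (edgeR adjusted p = 0.000652).

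Of 9 other deadenylases, 2 were higher and 1 lower. Noct, listed under its older name Ccrn4l and first described as a deadenylase, averaged 121 ± 4.42 CPM with Mycn-gRNA2, 124 ± 10.0 CPM with Mycn-gRNA3 and 74.5 ± 4.37 CPM in NT (SD, n = 4 each), a rise of 0.72 on the log2 scale (edgeR adjusted p = 4.35e-06). Pde12, a mitochondrial deadenylase, rose by 0.22 (adjusted p = 0.0244), and Angel2, on chromosome 1, fell by 0.29 (adjusted p = 0.0039). Pan2 and Pan3, whose products form the other general cytoplasmic deadenylase, were at 0.08 and -0.19 with both guides and were not called, while Pan3 was called lower with Mycn-gRNA3 alone (-0.30 on the log2 scale, edgeR adjusted p = 0.0212).

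Few of the remaining partner genes were called. Of 18 genes of decapping and decay from the 5-prime end, Edc4, a scaffold of the decapping enzyme on chromosome 8, fell by 0.26 on the log2 scale (edgeR adjusted p = 0.00745), and 17 were not called. With both guides, no call was made by edgeR among 7 genes of polyA binding and tailing, 4 BTG and TOB adaptors, which bind CNOT7 and CNOT8, or 2 other subunits and binding proteins. With Mycn-gRNA3 alone, the polyA polymerase genes Papola (-0.23 on the log2 scale, edgeR adjusted p = 0.0234) and Papolg (-0.39, adjusted p = 0.0324) were called lower. Among the binding proteins and other subunits was Cnot9, listed as Rqcd1, the subunit that contacts the TNRC6 proteins, at -0.07 (SE 0.0538, adjusted p = 0.336). Per ERCC read, 35 of the 57 were called higher and 0 lower, where 56.4% of all genes were called higher.

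**Figure D5:**
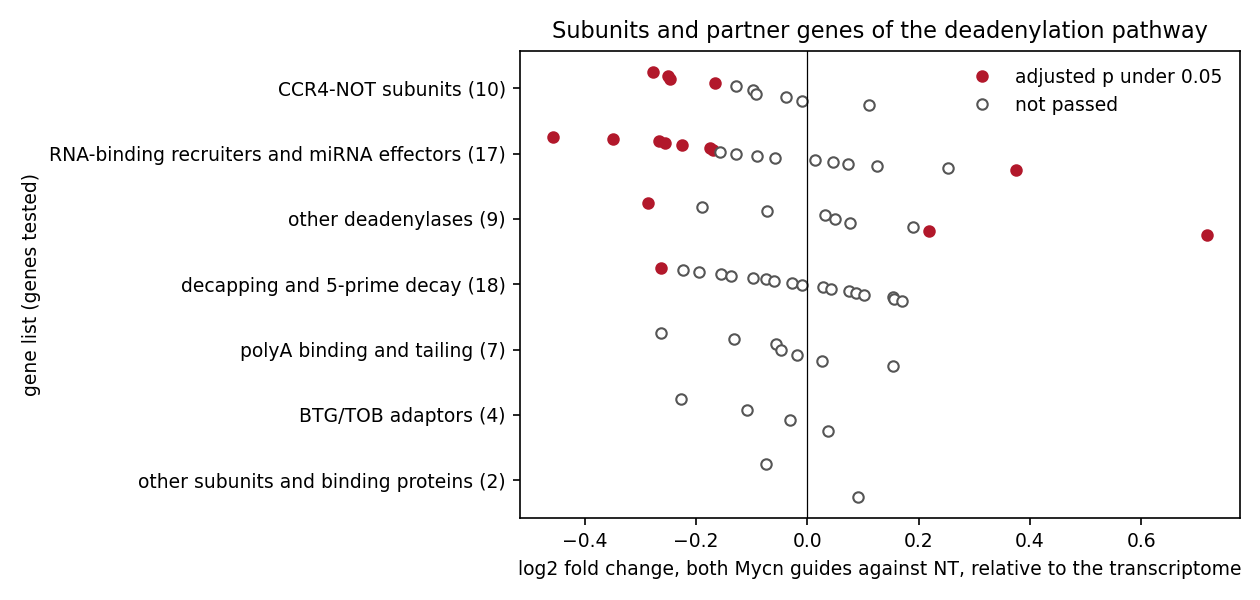
Log2 fold change of both Mycn guides against NT, relative to the transcriptome, for the 10 subunit genes and the 57 tested partner genes in 6 lists; filled points passed an adjusted p of 0.05. Calls lie on the left for the subunits, and on both sides for the recruiters and the other deadenylases, with Noct farthest to the right.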

How the data were processed

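PolyA RNA-seq of 12 libraries in 3 groups was analysed. The authors deposited raw read counts per gene and ERCC RNA, with gene coordinates and exon length, per the file headers. Trimming with Trim Galore 0.4.0, counting with featureCounts of Subread 1.5.0 on mm10 and use of edgeR 3.32.1 are named by the submitters' processing notes (aligner, annotation release, strand setting: not given in the sources used here). A second deposited table holds log2 values for 12042 genes, which equal log2(count + 0.5) minus a constant per library that lies within 0.048 of one from ERCC totals; it served only as an alternative.

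The test of the counts was edgeR 4.0.16 under R 4.3.3 (quasi-likelihood, robust, all libraries in 1 fit, genes kept by filterByExpr, Benjamini-Hochberg adjustment over all tested genes, threshold 0.05). Library sizes came from TMM factors over endogenous genes, or from the total of 92 ERCC RNAs. SE is the absolute log2 fold change over the square root of F, and 95% intervals use the t distribution of the fit. Ratios of paralogs were compared by exact two-sided permutation. The procedure was tested on simulated data. Alternatives used DESeq2 1.42.0, limma 3.58.1, other scalings, filters and sets of libraries. Depth limits precision, and reads carry no molecular identifiers.

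Groups and replicate numbers came from the titles. Deviations of same-numbered libraries correlated between Mycn-gRNA3 and Mycn-gRNA2 in all 4 pairs (0.175 to 0.641, above the limit of 0.1). Differently numbered libraries of these groups gave -0.644 to 0.471, so whether the numbers pair the groups is not settled. Adding the number as a block changed no call of a subunit between Mycn-gRNA3 and Mycn-gRNA2. Replicate pairs differed by more than sampling noise (chi-square per degree of freedom 8.57 to 72.8 in 18 pairs), so none was merged.

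All 10 members are described, whatever their values; partner genes are described by counts with those called named except for an item not reported here, a few uncalled ones named for context after their values were seen. The members and lists were chosen with earlier results of these data known. Promoter sequences came from RefSeq.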

Additional observations from a re-analysis of the deposited data

Results flagged for a closer look

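In 66 checks of a gene in 1 group of 4 libraries, 2 had a library far from the other 3, and chance gives about 1 in 20. Cnot4 was at 80.1 CPM in NT replicate 4, above the 66.3 to 68.5 CPM of the other NT libraries. Cnot2 was at 9.12 reads per 1000 ERCC reads in Mycn-gRNA3 replicate 4, below the 10.9 to 11.1 of the other Mycn-gRNA3 libraries.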

How the results depend on the processing

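Over 1580 recalculated fold changes of single subunit genes, 1459 kept their side of the threshold, of which 1410 kept their direction and 49 changed sign without a call. Another 95 lost a call, 26 gained one and 0 called values changed sign. With replicates 1 and 2 alone, a smaller fit, the number called lower relative to the transcriptome was 0 for both guides, 0 for Mycn-gRNA2 and 0 for Mycn-gRNA3, and the number called higher per ERCC read was 0 for both guides and 0 for Mycn-gRNA3. For Mycn-gRNA2 relative to the transcriptome, where 2 were called, the number was 1 without the filter, 1 with DESeq2 size factors, 0 with only the groups compared and 0 to 3 without single libraries. Per ERCC read, no filter gave 3 for both guides and 1 for Mycn-gRNA2, and replicates 3 and 4 alone gave 5 for Mycn-gRNA2. Without single libraries the number ranged from 1 to 7 for both guides, 0 to 5 for Mycn-gRNA2 and 1 to 6 for Mycn-gRNA3. The cause was not tested.

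The replicate number as a block left 3 called higher per ERCC read for both guides (Cnot2, Cnot6l and Cnot8) and 3 for Mycn-gRNA3 (Cnot2, Cnot10 and Cnot8). Relative to the transcriptome it left 4 lower for both guides, 4 for Mycn-gRNA3, and 2 for Mycn-gRNA2 (Cnot1 and Cnot6 in place of Cnot1 and Cnot7). Same-numbered libraries of Mycn-gRNA2 and NT correlated at -0.08 to 0.36 and those of Mycn-gRNA3 and NT at 0.06 to 0.29. Differently numbered libraries gave -0.511 to 0.354 for Mycn-gRNA2 and NT and -0.441 to 0.258 for Mycn-gRNA3 and NT. Whether the numbers pair guides with NT is therefore not settled. For Cnot8 over Cnot7 the log2 difference of 0.36 had an adjusted p of 0.167 under the block (exact sign-flip test over 4 numbers, which cannot give a p under 0.125 and so could not pass), was 0.32 with replicates 1 and 2 alone and 0.40 with replicates 3 and 4 alone, and 0.31 to 0.39 without single libraries. For Cnot6l over Cnot6 that range was 0.19 to 0.31.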
